A study of Mus musculus with 18 samples.

Results

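The 10 genes described here encode the cone version of the phototransduction cascade, the chain of proteins that turns light into an electrical signal in cone photoreceptors. They were chosen by symbol (Opn1sw, Opn1mw, Arr3, Gnat2, Gnb3, Gngt2, Pde6c, Pde6h, Cnga3 and Cngb3) and were found as 10 of the 21887 protein-coding gene windows of mm10, a window being the gene and 2 kb on both sides. Their chromatin accessibility was read in 2 multiome ATAC libraries of single nuclei, and their RNA in a table of mouse embryonic fibroblasts deposited by the authors.

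The study concerned direct reprogramming with the transcription factors Ikzf1 and Ikzf4. The control multiome library came from retina of C57BL/6 mice, with Muller glia as the labelled cell type, of the line GLAST-CRE ERT2 ; RosaYFP (tamoxifen-inducible Cre under the promoter of a glial glutamate transporter, with a YFP reporter), and its condition was mCherry. The Ikzf1/4 multiome library repeats its title in place of tissue, line, strain and condition, so only its name is known. Both carry a note of tamoxifen and 14 days, whereas the run names in both file headers carry 48h, and which of these times applies could not be settled. There was 1 library per condition, so the 2 libraries are compared as libraries, no test of the condition is possible, and library and condition cannot be told apart. The fibroblasts were of the line R26-M2rtTA on C57BL/6 (a doxycycline-dependent transactivator at the Rosa26 locus), with lentiviral Brn2 and Myt1l, induced by doxycycline, in both groups and Ikzf1 and Ikzf4 added in one, at 48 h, with 3 RNA-seq libraries per group.

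In cones, light changes the shape of an opsin, which activates transducin, a G protein made of an alpha, a beta and a gamma subunit. Transducin releases the inhibitory subunit from a phosphodiesterase that breaks down cyclic GMP, and the fall in cyclic GMP closes a cation channel in the outer segment. Arrestin then binds the opsin and ends its activity. Rods use a parallel set of genes, and many guanylate cyclases, kinases and calcium sensors serve both cell types.

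The promoters shown here belong to 4 of the 5 members that were at least 1.5-fold lower in cone-like nuclei of the Ikzf1/4 library, as context for the accessibility at their starts. The fifth, Cngb3, was not matched. They are RefSeq sequences of GRCm38.p6, from 250 bases before to 50 bases after the start, 5′ to 3′ on the strand of the gene, and 6 of the 10 members were matched in that table. Capitals mark TAATC, the first letters of the core bound by the photoreceptor factors CRX and OTX2, and TGGGAA, the core bound by Ikaros family factors such as Ikzf1 and Ikzf4, on either strand. The positions are chr6:29380464-29380763 (minus strand) for Opn1sw, chrX:74127216-74127515 (plus) for Opn1mw, chrX:100605247-100605546 (plus) for Arr3 and chr6:136954273-136954572 (plus) for Pde6h, which holds no match.
Opn1sw: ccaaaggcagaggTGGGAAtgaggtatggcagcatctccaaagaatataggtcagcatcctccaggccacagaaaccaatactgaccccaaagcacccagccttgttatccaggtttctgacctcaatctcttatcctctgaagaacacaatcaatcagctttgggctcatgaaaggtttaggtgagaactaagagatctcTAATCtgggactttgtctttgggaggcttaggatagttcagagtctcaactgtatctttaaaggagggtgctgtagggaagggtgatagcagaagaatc
Opn1mw: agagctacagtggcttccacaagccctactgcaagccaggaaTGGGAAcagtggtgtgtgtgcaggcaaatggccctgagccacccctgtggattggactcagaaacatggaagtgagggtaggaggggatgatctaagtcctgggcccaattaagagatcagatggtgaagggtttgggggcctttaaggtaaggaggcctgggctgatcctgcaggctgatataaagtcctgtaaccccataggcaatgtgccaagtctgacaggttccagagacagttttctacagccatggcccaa
Arr3: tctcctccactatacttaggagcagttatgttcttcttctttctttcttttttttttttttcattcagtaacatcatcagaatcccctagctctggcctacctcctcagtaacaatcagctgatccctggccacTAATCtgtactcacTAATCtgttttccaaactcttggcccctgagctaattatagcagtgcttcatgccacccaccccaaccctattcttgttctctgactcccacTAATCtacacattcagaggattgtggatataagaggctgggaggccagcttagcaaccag
Pde6h: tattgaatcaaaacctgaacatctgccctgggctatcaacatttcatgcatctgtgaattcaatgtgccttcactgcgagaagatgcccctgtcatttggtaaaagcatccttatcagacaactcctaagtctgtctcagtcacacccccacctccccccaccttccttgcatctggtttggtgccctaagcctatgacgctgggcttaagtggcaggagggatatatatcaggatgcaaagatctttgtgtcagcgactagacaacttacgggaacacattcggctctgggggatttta
TAATC stood in 3 of the 7 member promoters (Cnga3 has 2 listed starts), with 3 matches for Arr3, 1 for Opn1sw and 1 for Gnat2, against 22.0% of all 32851 promoters of this length. The search for TAATC was added after the letters had been seen. The longer core TAATCC, of which TAATC is a part, was found for Gnat2 alone, 19 to 14 bases before its start on the opposite strand, against 7.06% of all promoters. TGGGAA was found in 2 of the 7 member promoters, those of the opsins, 237 to 232 bases before the start of Opn1sw and 208 to 203 before that of Opn1mw, against 25.6% of all promoters. AGGTCA, a hexamer of nuclear receptor sites, was found in 1 of the 7 (Opn1sw), against 16.3% of all promoters. TGCTGA, a hexamer of sites of the rod factor NRL, was also found in 1 of the 7 (Opn1sw, overlapping an AGGTCA match), against 19.5%. These matches describe letters in 1 window and were not tied to binding.

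The control library held 1955 barcodes with 3000 to 90000 fragments and 14990373 fragments in them. The Ikzf1/4 library held 745 such barcodes and 9270660 fragments. Levels are fragments overlapping a window per 1000000 fragments of the same nuclei (CPM), and bracketed ranges are exact 95% intervals that cover counting error only. The libraries differed in other ways that were not tested as causes of any result. The median nucleus had 6248 and 10682 fragments, fragments under 150 bp made up 61.5% and 53.0%, and chromosome X held 26054 and 18816 fragments per 1000000. Of the barcodes, 3 occurred in both libraries.

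Nuclei were clustered without the windows of the members and of their rod counterparts, and clusters were called after marker genes that include no member. Cone-like nuclei made up 262 of 1955 (13.4%) in the control library and 148 of 745 (19.9%) in the Ikzf1/4 library. Rod-like nuclei made up 4.76% and 17.7%, bipolar-like 15.4% and 19.5%, and Muller glia-like nuclei, the labelled type of the control, 32.4% and 17.7%. Clusters left unnamed held 24.4% and 22.3%. The cone-like class joined 3 clusters that were divided by library. Cluster 6 held 219 control nuclei and 4 Ikzf1/4 nuclei, cluster 10 held 13 and 87, and cluster 13 held 30 and 57. Cluster 10 scored nearly as high for horizontal cell markers (0.93) as for cone markers (1.10, both mean log2 ratios to the mean of the clusters). All 7 cone markers lay above the mean in it. The rule for naming was set after the clusters had been seen. A first rule also asked for a gap between the best and the next marker list, and it left cluster 10 unnamed. The place of cluster 10 in the class, with 87 of its 148 Ikzf1/4 nuclei, thus rests on dropping that gap.

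All 10 members were more accessible in cone-like nuclei than in the other nuclei of the same library. The median ratio was 6.18 in the control library (2.69 for Gnb3 to 17.4 for Opn1sw), where the median of all windows was 1.14 and 19.0% of them were at least 1.5-fold higher. In the Ikzf1/4 library it was 5.62 (1.57 for Gnb3 to 12.5 for Opn1mw), where the median of all windows was 1.13 and 13.3% were at least 1.5-fold higher. Among the 17141 windows ranked in the control library, Opn1sw, Arr3, Opn1mw and Pde6h took ranks 1 to 4. In the Ikzf1/4 library, Opn1mw, Arr3 and Pde6h took ranks 1 to 3 of 15937, and Opn1sw stood at rank 8. The markers and the members were both chosen as cone genes, so these ranks check the class name and are given as a description.

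**Figure D1:**
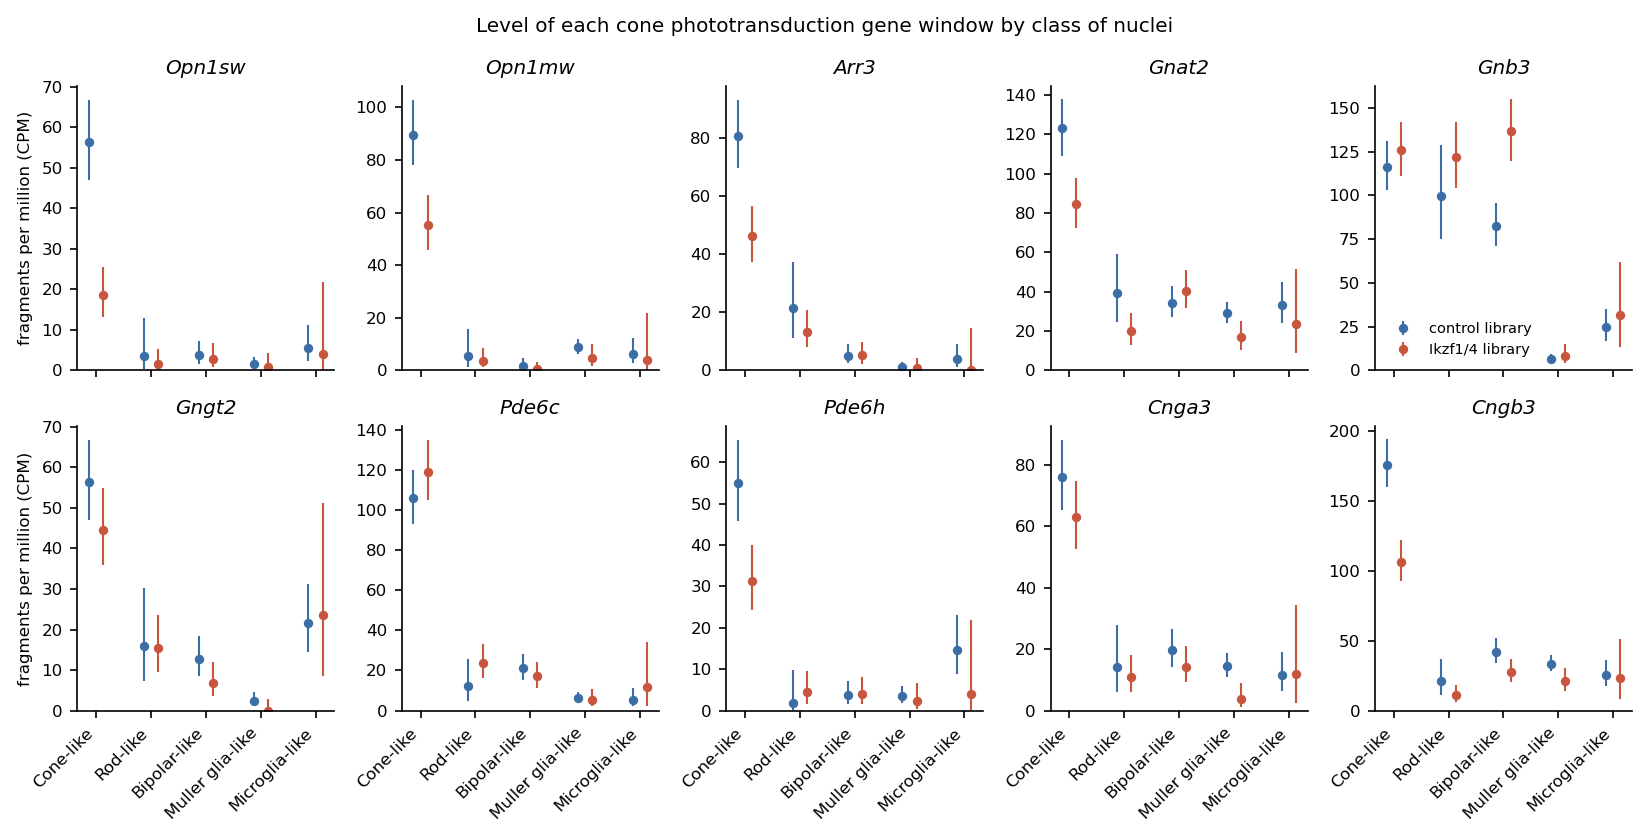
Level of each member window in fragments per 1000000 (y axis, from 0, with its own scale in each panel) in 5 classes of nuclei (x axis), for the control library (blue) and the Ikzf1/4 library (red). Points are levels over the summed nuclei of a class and bars are exact 95% counting intervals. Opn1sw in cone-like nuclei stands at 56.3 and 18.6, and Gnb3 is as high in rod-like and bipolar-like nuclei as in cone-like nuclei of the Ikzf1/4 library.

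Opn1sw, the short-wavelength (S) opsin (GRCm38.p6 chr6:29376671-29380513, with Calu reaching into its window), had the lowest ratio of the members (Ikzf1/4 over control library), both over all used nuclei and in cone-like nuclei. Over all used nuclei its window stood at 11.5 CPM in the control library and 6.58 CPM in the Ikzf1/4 library, giving a ratio of 0.573 (0.421 to 0.772), which was 0.882 over all barcodes. In cone-like nuclei it stood at 56.3 CPM (131 fragments) and 18.6 CPM (38 fragments), a ratio of 0.331 (0.225 to 0.479), which was 2.07 in cluster 10 alone, on 2 control fragments. The level over the class is scaled to the fragments of the class, so the share of cone-like nuclei does not enter it. That share was larger in the Ikzf1/4 library. That larger share rests on cluster 10 (13 control and 87 Ikzf1/4 nuclei), without which the order of the shares is reversed. In rod-like nuclei Opn1sw stood at 3.55 and 1.47 CPM, and in Muller glia-like nuclei at 1.49 and 0.761 CPM, on 6 or fewer fragments each.

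Opn1mw, the medium-wavelength (M) opsin, lies on chromosome X (chrX:74127466-74150756, with Tex28 reaching into its window). Its window stood at 20.1 CPM and 15.6 CPM over all used nuclei, a ratio of 0.779 (0.634 to 0.953). Scaled to all fragments of chromosome X the ratio was 1.08, while the gene windows of that chromosome had a median ratio of 0.859. In cone-like nuclei it stood at 89.7 and 55.4 CPM, a ratio of 0.617 (0.487 to 0.780). This difference was not seen within the clusters of the class. Its levels were 37.3 and 49.0 CPM in cluster 10 (ratio 1.31, 0.657 to 2.98) and 66.0 and 75.3 CPM in cluster 13 (1.14, 0.547 to 2.60). In cluster 6 they were 98.1 and 95.5 CPM, the latter on 4 fragments. The part of the clusters in the class ratio was not tested. Chromosome X as a whole was lower in the Ikzf1/4 library, also among cone-like nuclei (19043 and 16192 fragments per 1000000), and its windows had a median ratio of 0.978 there. Scaled to chromosome X, the cone-like ratio of Opn1mw was 0.726 and no longer passed 1.5-fold. Outside the cone-like class the highest level of Opn1mw among named classes of the control library was 8.70 CPM, in Muller glia-like nuclei.

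The S opsin's share of the fragments in both opsin windows was 38.5% (33.3 to 43.9) in cone-like nuclei of the control library and 25.2% (18.5 to 32.9) in those of the Ikzf1/4 library. These intervals do not overlap, but the gap between them is small. They count fragments as separate draws, although up to 7 Opn1mw fragments came from 1 control nucleus, so they may be too narrow. The share was 37.7% in control cluster 6. In cluster 13 it was 58.3% (36.6 to 77.9, 24 fragments) among control nuclei and 23.8% (12.1 to 39.5) among Ikzf1/4 nuclei. In cluster 10 it was 18.2% (2.28 to 51.8, on 11 fragments) and 26.0% (17.9 to 35.5), the other order, with overlapping intervals. Among cone-like nuclei of the control library, 56 had a fragment in the Opn1sw window alone, 78 in the Opn1mw window alone, 33 in both and 95 in neither. The same counts in the Ikzf1/4 library were 16, 53, 13 and 66, and single-nucleus data this sparse cannot class a nucleus by its opsin.

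Arr3, the cone arrestin, also lies on chromosome X (chrX:100605480-100618493). Its window stood at 17.1 and 13.9 CPM over all used nuclei, a ratio of 0.812 (0.652 to 1.01) that counting error does not separate from 1. Scaled to all fragments of chromosome X the ratio was 1.12, while the gene windows of that chromosome had a median ratio of 0.859. In cone-like nuclei it stood at 80.7 and 46.1 CPM, a ratio of 0.571 (0.441 to 0.735). Scaled to chromosome X the cone-like ratio was 0.672, just short of 1.5-fold. Rod-like nuclei, with 21.3 and 13.2 CPM, had the next highest level among the named classes. Bipolar-like nuclei had 5.04 and 5.12 CPM.

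The transducin subunits differed among themselves. Gnat2, the alpha subunit (chr3:108086788-108101432), stood at 44.4 and 39.8 CPM over all used nuclei and at 123 and 84.3 CPM in cone-like nuclei, where the ratio was 0.687 (0.565 to 0.833). Its window reaches into Ampd2 and Gm12500, and it held 28.9 CPM even in Muller glia-like nuclei of the control library. Gngt2, the gamma subunit (chr11:95841772-95845734), stood at 16.7 and 16.3 CPM over all used nuclei and at 56.3 and 44.6 CPM in cone-like nuclei, a ratio of 0.793 (0.600 to 1.04) within counting error of 1. Its window overlaps the gene Abi3, and it held 21.7 CPM in microglia-like nuclei of the control library.

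Gnb3, the beta subunit (chr6:124834240-124840275), had the largest ratio of the members over all used nuclei, at 90.5 CPM in the Ikzf1/4 library against 54.4 CPM in the control, a ratio of 1.66 (1.51 to 1.84). In cone-like nuclei its levels were 126 and 116 CPM, a ratio of 1.09 (0.913 to 1.29). Gnb3 is also the beta subunit of ON bipolar cells. In bipolar-like nuclei it stood at 137 CPM in the Ikzf1/4 library and 82.4 CPM in the control, a ratio of 1.66 (1.36 to 2.02), and in rod-like nuclei at 122 and 99.4 CPM. The summed bipolar markers in bipolar-like nuclei were also higher in the Ikzf1/4 library, at 2012 against 961 CPM (6 of 8 genes), and different clusters held most of that class in the libraries. The largest differences were those of Prkca (1141 against 477 CPM) and Trpm1 (548 against 223 CPM), while Vsx1 and Gsg1 were lower. These markers named the class, so their sum depends on that choice, and its relation to Gnb3 was not tested. In Muller glia-like nuclei Gnb3 stood at 8.37 and 6.22 CPM. Its window reaches into Cdca3 and P3h3.

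The phosphodiesterase subunits went apart. Pde6c, the catalytic subunit (chr19:38132781-38183955), stood at 40.1 CPM in the Ikzf1/4 library and 30.4 CPM in the control over all used nuclei, a ratio of 1.32 (1.15 to 1.52). In cone-like nuclei it stood at 119 and 106 CPM, a ratio of 1.13 (0.941 to 1.35). Pde6h, the inhibitory subunit (chr6:136952218-136963485), stood at 9.82 and 12.7 CPM over all used nuclei, a ratio of 0.770 (0.593 to 0.994). In cone-like nuclei Pde6h had 31.4 CPM in the Ikzf1/4 library and 55.0 CPM in the control, a ratio of 0.571 (0.416 to 0.777). Over the class the interval of Pde6h lies wholly below that of Pde6c, although both belong to 1 enzyme and were counted in the same nuclei. Their intervals overlap within clusters 10 and 13. In cluster 10 the ratios were 1.03 (0.463 to 2.70) for Pde6h and 1.62 (0.987 to 2.85) for Pde6c. In cluster 13 they were 0.758 (0.310 to 2.03) and 1.38 (0.771 to 2.62).

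Cnga3 (chr1:37218241-37263384) and Cngb3 (chr4:19280850-19510623) encode the alpha and beta subunits of the cone cyclic-nucleotide-gated channel. Cnga3 stood at 26.7 and 26.0 CPM over all used nuclei, a ratio of 0.974 (0.827 to 1.15), and at 76.0 and 62.8 CPM in cone-like nuclei, a ratio of 0.826 (0.653 to 1.04). Cngb3, whose window of 234 kb is the longest of the members, stood at 61.8 and 48.8 CPM over all used nuclei, a ratio of 0.789 (0.704 to 0.884). In cone-like nuclei Cngb3 stood at 176 and 106 CPM, a ratio of 0.603 (0.509 to 0.712). Per kb of window, the levels in cone-like nuclei of the control library ran from 0.755 CPM for Cngb3 to 11.6 CPM for Gnb3.

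Over all used nuclei, 1 of the 10 members (Opn1sw) was at least 1.5-fold lower in the Ikzf1/4 library and 1 (Gnb3) at least 1.5-fold higher. The background was 8.45% of 19233 windows lower and 3.26% higher, and among chromosome X windows 28.4% were lower, so these counts lie near the background. The median ratio of the members was 0.854 (-0.23 on the log2 scale), that of all windows 1.06, and 8 of the 10 ratios lay under 1. Of these 8, Opn1mw and Arr3 lay above 1 when scaled to all fragments of chromosome X, which left a median of -0.04 on the log2 scale. The gene windows of chromosome X had a median ratio of 0.859. The unscaled ratios of Opn1mw (0.779) and Arr3 (0.812) lay below it, with intervals that include it. The count of members lower depended on the nuclei and the stretch counted. It was 0 over all barcodes and 0 over gene bodies without flanks, and 2 among barcodes with at least 10000 fragments. The share of all windows was not counted under these settings.

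Within cone-like nuclei, 5 of the 10 members (Opn1sw, Opn1mw, Arr3, Pde6h and Cngb3) were at least 1.5-fold lower in the Ikzf1/4 library and 0 were at least 1.5-fold higher. The background was 5.30% of 15904 windows lower and 6.44% higher. The median ratio of the members was 0.652 against 1.04 for all windows, and all 10 members passed the minimum of 20 fragments over both libraries. The summed members went from 935 to 695 CPM, a ratio of 0.743 (0.695 to 0.795). The 7 cone markers that are no members went from 859.7 to 791 CPM, a ratio of 0.921 (0.862 to 0.984). These markers named the class in both libraries, so their ratio depends on that choice and is no independent reference. The summed members were also lower in Muller glia-like nuclei, at 107 and 63.9 CPM, a ratio of 0.598 (0.467 to 0.757). Their ratio was 0.964 (0.783 to 1.19) in rod-like and 1.13 (0.990 to 1.28) in bipolar-like nuclei. Summed rod markers stood at 465 and 509 CPM and Muller glia markers at 233 and 248 CPM in cone-like nuclei. The part of other cell types' fragments in the members' ratios was not tested. The count of members lower was 0 in cluster 10 alone (4 were higher there) and 3 with chromosome X members scaled to chromosome X. It was 1 (Opn1sw) with levels scaled to fragments under 150 bp, which made up 59.4% and 49.7% of the cone-like fragments. That scaling moves the ratios of all windows by the same factor, and no background was counted under it.

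**Figure D2:**
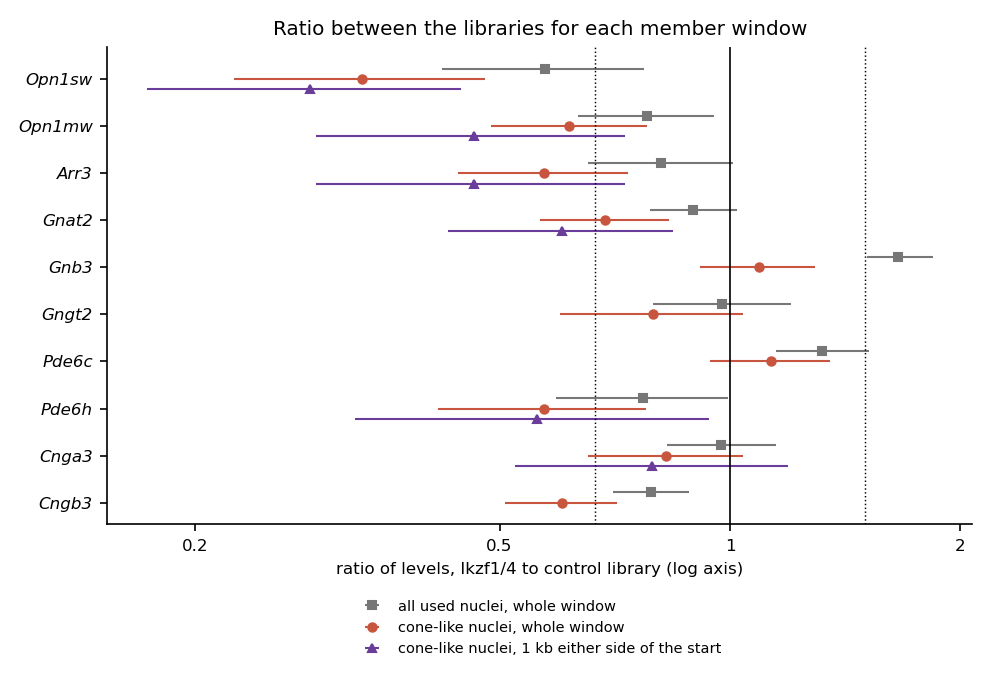
Ratio of the level in the Ikzf1/4 library to that in the control library (x axis, log scale) for each member (y axis), over all used nuclei (grey squares), over cone-like nuclei (red circles) and over cone-like nuclei for 1 kb on both sides of the start (purple triangles, 6 members with a listed start). Bars are exact 95% counting intervals, the solid line marks equal levels and the dotted lines mark 1.5-fold. Opn1sw lies farthest to the left at 0.573, 0.331 and 0.283, and Gnb3 at 1.66 lies past the right dotted line over all used nuclei but at 1.09 in cone-like nuclei.

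Around the gene start, the ratio in cone-like nuclei was lower than over the whole window for each of the 6 members with a listed start, with overlapping intervals. Within 1 kb of the start, Opn1sw stood at 41.7 and 11.8 CPM, a ratio of 0.283 (0.173 to 0.445). Opn1mw and Arr3 each had 69 and 28 fragments there, a ratio of 0.463 (0.288 to 0.729). Gnat2 had a ratio of 0.603 (0.428 to 0.842), Pde6h 0.559 (0.324 to 0.939) and Cnga3 0.792 (0.524 to 1.19). These are 5 of the 6 members with a listed start at least 1.5-fold lower, where 2.77% of 9382 gene starts were that much lower and the median ratio was 1.10.

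Transposition ends were counted in 500-bp bins, and the bins given are among the highest of each window in cone-like nuclei over both libraries. Both ends of a fragment were counted, also where they fell in the same bin. The intervals of bins treat each end as separate, so they are too narrow. In this count, 1 bin over the start of Opn1sw held 51.7% of all ends of its window in cone-like nuclei, on 6.38% of its length. That bin had 61.8 ends per 1000000 fragments in the control library and 13.2 in the Ikzf1/4 library, for a ratio of 0.214 (0.136 to 0.325), against 1.03 and 1.80 in all other nuclei. It covers most of the promoter printed above, but the TGGGAA match lies in the next bin upstream, which had 13.3 and 5.39 ends per 1000000. The bin just upstream of the start of Opn1mw had 34.8 and 13.2 ends per 1000000, a ratio of 0.381 (0.237 to 0.595), and that of Arr3 had 35.2 and 15.7, a ratio of 0.446 (0.287 to 0.678). The bin over the start of Gnat2 had 42.5 and 27.0, and the next bin upstream had 35.6 and 16.2, a ratio of 0.454 (0.294 to 0.687). The listed start of Gnat2 lies inside the annotated gene, in a bin centred 6250 bp from the low gene end.

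Pde6h had bins of similar height at its start and about 1 kb upstream. The start bin had 22.8 and 12.3 ends per 1000000, a ratio of 0.539 (0.321 to 0.882). The upstream bin had 23.2 and 5.88, a ratio of 0.254 (0.124 to 0.480). A bin of Pde6h 3445 bp inside from the start had 12.9 and 12.3 ends per 1000000, a ratio of 0.952 (0.537 to 1.67). The interval of the upstream bin lies below that of the inner bin by a small gap, but intervals of bins are too narrow, as stated above. These bins can thus not be separated on their intervals. The interval of the start bin overlaps that of the inner bin. The listed start lies inside the annotated gene, and so does the upstream bin, which is centred 1250 bp from the low gene end.

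The highest bin of Cnga3 covered the later of its 2 listed starts, with 31.8 and 21.1 ends per 1000000, a ratio of 0.664 (0.445 to 0.979). An inner bin of Cnga3, 21213 bp from the first start, had 16.7 and 19.6, a ratio of 1.17 (0.734 to 1.87). The highest bin of Cngb3 began at the low-coordinate end of the gene, at chr4:19280850-19281349, and had 18.9 and 9.32 ends per 1000000, a ratio of 0.493 (0.272 to 0.862). The highest bins of Gnb3 (82.9 and 85.3, ratio 1.03, 0.834 to 1.27) and of Pde6c (25.3 and 28.0, ratio 1.10, 0.753 to 1.62) did not differ beyond counting error. Gngt2 had 51.1 and 33.3 in its highest bin, inside the gene, a ratio of 0.653 (0.477 to 0.886).

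**Figure D3:**
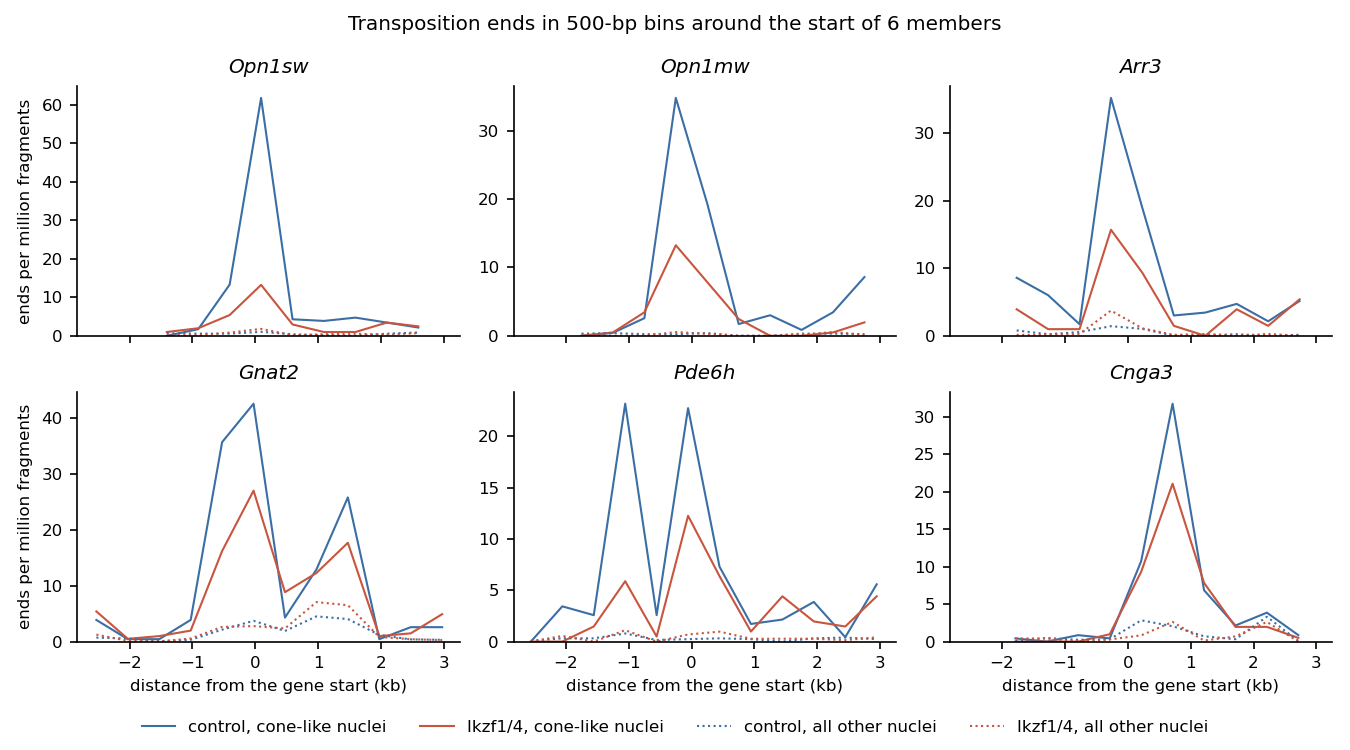
Transposition ends per 1000000 fragments (y axis, from 0) in 500-bp bins by distance from the gene start in kb (x axis, positive into the gene) for 6 members with a listed start, in cone-like nuclei (solid) and all other nuclei (dotted) of the control (blue) and Ikzf1/4 (red) libraries. The start bin of Opn1sw reaches 61.8 for control nuclei and 13.2 for Ikzf1/4 nuclei, and Pde6h has bins of 22.8 and 23.2 in the control library. For Cnga3, distances are from the first of 2 starts.

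The clusters that make up the cone-like class gave different values. Opn1sw stood at 59.4 CPM in control cluster 6 and at 17.2 CPM in cluster 10 of the Ikzf1/4 library, the main cluster of each. In cluster 13, which both libraries share, it stood at 92.4 CPM (14 fragments) among control nuclei and 23.5 CPM (10 fragments) among Ikzf1/4 nuclei, for a ratio of 0.255. In cluster 10 the 13 control nuclei had 8.29 CPM (2 fragments, interval up to 29.9), which is no higher than the Ikzf1/4 value. Opn1mw went the other way in cluster 13, with 66.0 CPM for control nuclei and 75.3 CPM for Ikzf1/4 nuclei. Its ratio of 1.14 (0.547 to 2.60, on 10 and 32 fragments) lay within counting error of 1. Without cluster 10, the control nuclei were mainly those of cluster 6 (219) and the Ikzf1/4 nuclei mainly those of cluster 13 (57). The libraries were then compared largely across clusters. In that comparison 4 members were at least 1.5-fold lower, against a background of 11.9% of windows, and 0 were higher, against 10.6%. These 4 were Opn1sw (0.381), Cnga3 (0.509), Cngb3 (0.571) and Pde6h (0.628, with an interval of 0.354 to 1.05 that includes 1). Cnga3 was thus added, and Opn1mw (0.805, 0.548 to 1.15) and Arr3 (0.668, 0.425 to 1.01) were no longer called. In cluster 13 alone 6 were lower, against 10.6% of windows, and 0 were higher, against 21.1%. Opn1sw (0.255), Cngb3 (0.590) and Arr3 (0.631) were among the 6, Gngt2 (0.423), Cnga3 (0.494) and Gnat2 (0.507) were added, and Pde6h (0.758) and Opn1mw were not called. In cluster 10 alone 0 were lower, against 10.3% of windows, and 4 were higher, against 19.2%. Those higher were Gngt2 (ratio 2.18, 0.891 to 6.92), Opn1sw (2.07, 0.521 to 18.0), Cnga3 (1.67, 0.876 to 3.59) and Pde6c (1.62, 0.987 to 2.85), whose intervals all include 1.

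**Figure D4:**
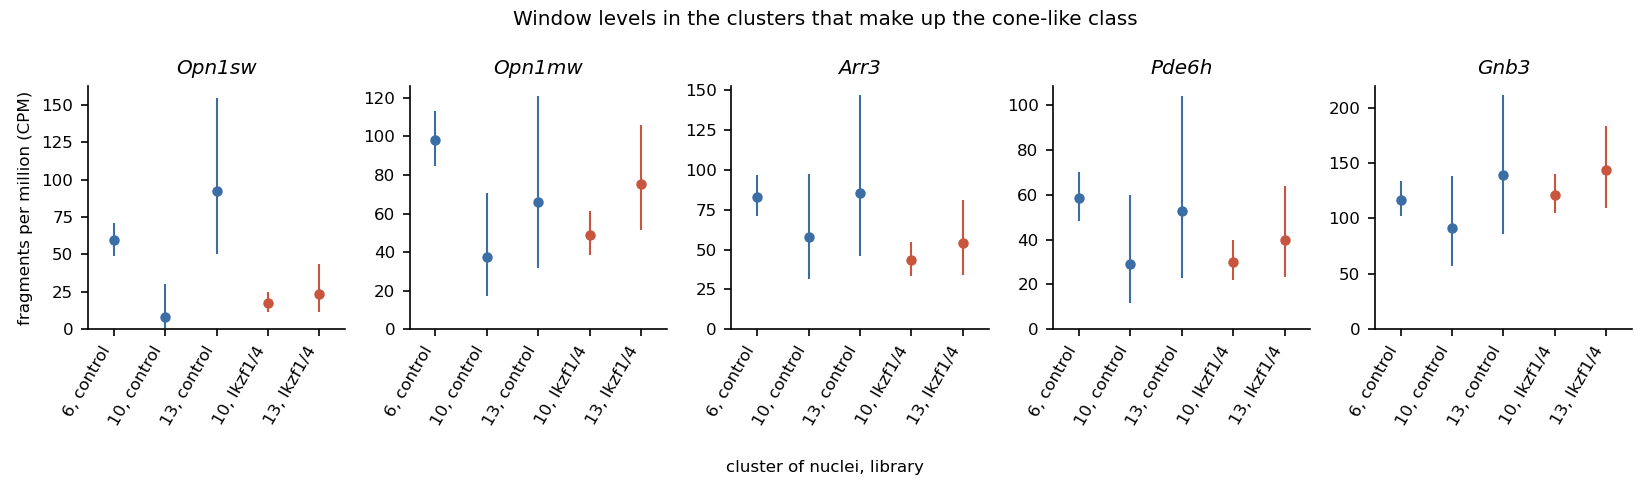
Level in fragments per 1000000 (y axis, from 0) of 5 member windows in the clusters that make up the cone-like class (x axis), for control (blue) and Ikzf1/4 (red) nuclei, with exact 95% counting intervals. The 4 Ikzf1/4 nuclei of cluster 6 are not drawn. Opn1sw is 92.4 in cluster 13 of the control and 23.5 in that of the Ikzf1/4 library, and 8.29 in the 13 control nuclei of cluster 10.

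Nuclei were also compared at 1 depth, as the expected share with a fragment after drawing 3000 fragments from each. An Opn1sw fragment was then expected in 16.7% of cone-like nuclei of the control and 5.83% of those of the Ikzf1/4 library (34.0% and 19.6% at full depth). In Muller glia-like nuclei, which should lack the gene, the shares were 0.462% and 0.172%. Per nucleus, 2.41 and 1.85 of the 10 members were expected to have a fragment in cone-like nuclei. In rod-like nuclei the numbers were 0.601 and 0.596, in bipolar-like nuclei 0.610 and 0.666, and in Muller glia-like nuclei 0.277 and 0.160. Barcodes outside the range used gave 4.69 and 5.53 CPM for Opn1sw, against 3.24 and 3.18 CPM in used nuclei that are not cone-like. For Gnb3 they gave 11.2 and 13.4 CPM, against 43.0 and 80.5 CPM in those nuclei.

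The rod genes that play the same parts went differently over all used nuclei. Of the 9 rod counterparts reported here, 5 were at least 1.5-fold higher in the Ikzf1/4 library and 0 were lower, with a median ratio of 1.56, against 3.26% of all windows higher and 8.45% lower. These were Gnat1, the rod transducin alpha subunit, at 1.88 (1.63 to 2.17), Pde6a at 1.85, Pde6g at 1.83, Gngt1 at 1.66 and Gnb1 at 1.56. The share of rod-like nuclei was larger in the Ikzf1/4 library, and its part in these ratios was not tested. Within cone-like nuclei 2 of the 9 counterparts were lower (Gngt1, ratio 0.337, and Cnga1, ratio 0.534) and 0 were higher, with a median of 0.859, against 5.30% of all windows lower and 6.44% higher.

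Of 12 regulators listed as shared by rods and cones, 4 were at least 1.5-fold higher over all used nuclei (background 3.26%). Slc24a1 (1.53, 1 of the 4) and Slc24a2 in this list also served as a rod and a cone marker. In cone-like and rod-like nuclei of the control library, Slc24a1 stood at 38.2 and 128 CPM and Slc24a2 at 175 and 12.4 CPM. The 1 regulator lower (background 8.45%) was Gucy2f, a guanylate cyclase on chromosome X, with a ratio of 0.643 that was not scaled to that chromosome. Recoverin (Rcvrn), a calcium sensor, had the largest ratio, at 2.04 (1.70 to 2.45). Within cone-like nuclei 2 of the 12 were lower (background 5.30%), Guca1b (a guanylate cyclase activator, ratio 0.621) and Gucy2f (ratio 0.571). The interval of Gucy2f (0.286 to 1.10, on 30 and 15 fragments) includes 1, and the median of the 12 was 0.861. Of 12 photoreceptor transcription factors, 5 were higher over all used nuclei (background 3.26%), led by the rod factor Nrl at 2.79 (2.34 to 3.34). Within cone-like nuclei 0 of the 12 passed 1.5-fold in either direction, with a median of 0.992. Thrb, Rxrg and Sall3 were among the markers that named the class, so their ratios there depend on that choice. Crx stood at 144 and 143 CPM there, and Thrb, the thyroid hormone receptor needed for M opsin in cones, at 340.1 and 286 CPM, a ratio of 0.841 (0.754 to 0.937).

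Across the 19 groups of at least 50 nuclei formed by cluster and library, the window whose level followed the mean profile of the members most closely was Tafa3, with Pearson's r of 0.87. Add2 and Abraxas1 followed with 0.86, and Tph1 and Parvb with 0.85. Tafa3 was among the cone markers, and the groups share libraries and depth, so these values are a description. Each member was set against the mean of the other members in the same way, where Opn1sw followed them most closely (0.88) and Gnb3 least (0.55).

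In the fibroblasts the members were at low RNA levels, and in such bulk RNA fewer expressing cells and less RNA per cell cannot be told apart. In the authors' deposited table their mean normalised counts ran from 0 for Arr3 and Pde6c to 62.1 for Gngt2, against a median of 676 over the genes with an adjusted p. Of the 6 members with an adjusted p there, 1 was lower with Ikzf1 and Ikzf4 and 0 were higher, where 15.4% of 16757 genes were lower and 15.3% higher. The 1 called was Opn1sw, with a mean of 13.02 and a log2 fold change of -0.50 (SE 0.20, adjusted p 0.0422, DESeq2 in the authors' deposited table). At an unadjusted p under 0.05, Opn1sw was again the only member called, and the share of all genes at that threshold was not counted. Arr3 and Pde6c have no p there.

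The authors' deposited table gave log2 fold changes of -0.12 for Gnat2, 0.09 for Gngt2, 0.41 for Pde6h, -0.04 for Cnga3 and -0.26 for Cngb3, none past the threshold. Opn1mw and Gnb3, with means of 1.22 and 1.56, had no adjusted p in the authors' deposited table. Of the 8 photoreceptor transcription factors with an adjusted p there, of 12, 2 were higher, Sall3 (1.35, SE 0.22) and Rorb (0.46, SE 0.12). The rod counterpart Gnb1 (-0.16) and the shared regulator Gnb5 (-0.22) were lower in the authors' deposited table, and both are transcribed in many cell types. The added factors Ikzf1 and Ikzf4 had log2 fold changes of 7.76 and 8.54 in the authors' deposited table. At a mean of 13.02 normalised counts over 6 libraries the call for Opn1sw rests on few reads, and it was lost at an adjusted p under 0.01.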

How the data were processed

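The authors deposited 2 multiome fragment files made with cellranger-arc 2.0.1 and an mm10 reference, per the file headers. Each line is a unique fragment with its barcode and count of read pairs. Fragments overlapping gene windows (GRCm38.p6 genes, 2 kb flanks) were counted for barcodes with 3000 to 90000 fragments. No doublet caller was run beside that upper limit. Autosomal 5-kb bins outside the windows of members and rod counterparts were clustered (TF-IDF, 20 components, 15 neighbours, Leiden resolution 1, leidenalg 0.10.2), giving 20 clusters. A cluster took a cell type's name if its markers scored highest and averaged at least 0.5 on the log2 scale above the mean of the clusters. It also needed 3 or more markers above that mean. Its 10 leading windows could hold no more markers of other types than of its own. Ratios have exact conditional binomial intervals (scipy 1.17.1), which were tested on simulated counts. Windows with at least 20 fragments over both libraries entered the background.

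The authors' deposited fibroblast table, made with DESeq2 per the labels, gives a mean normalised signal, log2 fold changes, a Wald score and p-values. The sources do not say whether the fold changes were shrunk. Their standard errors were small even at low means (0.08 for Opn1mw at 1.219, 0.05 for Rcvrn at 0.3656). Unshrunk values at such means would have larger ones, so the fold changes are best read as shrunk towards 0. Nothing in the labels says that its libraries came from separate cultures. Transcript estimates and fibroblast ATAC peaks were not used: no source paired the transcripts with genes, and the peak coordinates ran past the end of an mm10 chromosome. The planned test of gene counts was thus replaced by the deposited one.

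All 10 members are named. Fixed lists of rod counterparts, shared regulators and transcription factors are given by counts, with up to 5 members past the fold by size. 1 rod counterpart is not reported here and is left out of that list's counts and medians. The 5 windows most like the members were ranked by Pearson's r. The members and lists were chosen with earlier results of these data known.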

Additional observations from a re-analysis of the deposited data

Results flagged for a closer look

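Barcodes outside the range of 3000 to 90000 fragments were left out of the used nuclei, and their levels in the member windows are compared between the libraries here. For 3 members the level in them was higher in the Ikzf1/4 library than in the control beyond counting error, against 21.7% of all windows. The ratio was 1.20 for Gnb3 (11.2 CPM in the control and 13.4 CPM in the Ikzf1/4 library, interval 1.03 to 1.40). It was 1.30 for Gngt2 (5.14 and 6.67 CPM, 1.03 to 1.63) and 1.10 for Cngb3 (69.9 and 77.1 CPM, 1.04 to 1.18). For Cngb3 this is the other direction from the used nuclei, where the ratio was 0.789. Opn1mw (0.772, 0.648 to 0.916) and Cnga3 (0.887, 0.790 to 0.995) were lower beyond counting error, against 14.3% of all windows.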

How the results depend on the processing

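Over all used nuclei, the median log2 ratio of the members stayed between -0.32 and -0.02 under the 9 alternatives. The count of members lower was 2 with at least 10000 fragments per barcode, and 0 over all barcodes and over gene bodies without flanks, with no background counted for these. The count higher was 0 within 1 kb of the start, where Gnb3 has no listed start. Scaled to all fragments of chromosome X, the ratios of Opn1mw and Arr3 turned to 1.08 and 1.12. Unscaled, both lay below the median of 0.859 of the gene windows of that chromosome. Opn1sw ranged from 0.496 to 0.882 and Gnb3 from 1.56 to 1.97. Within cone-like nuclei, alternatives chosen after seeing the data left the count lower at 4 to 6, with 3 exceptions. It was 0 in cluster 10 alone, 3 when chromosome X members were scaled to chromosome X and 1 when all fragments were scaled to those under 150 bp. The last of these moves the ratios of all windows by the same factor, and no background was counted under it. The members counted differed by cluster. Without cluster 10, Opn1mw and Arr3 (0.805 and 0.668) were lost and Cnga3 (0.509) was gained. In cluster 13 alone, Opn1mw and Pde6h (0.758) were lost and Gngt2, Cnga3 and Gnat2 (0.423, 0.494 and 0.507) were gained. With fragments under 150 bp both counted and used as the scale it was 5. In cluster 10 alone, with 13 control nuclei, 4 members were higher. The ratios of Opn1sw, Opn1mw and Pde6h, which were called lower over the class, turned to 2.07, 1.31 and 1.03, and those of Gngt2 and Cnga3, which were not called, to 2.18 and 1.67. Under the others the ratio of Opn1sw stayed between 0.255 and 0.396, and that of Opn1mw reversed to 1.14 in cluster 13 (0.547 to 2.60, which includes 1). For cone-like against other nuclei, the median log2 ratio was 4.63 and 3.06 (control and Ikzf1/4) within 1 kb of the start, over the 6 members with a listed start. Over the whole windows of all 10 members it was 2.63 and 2.49. These are different sets. The 6 include Opn1sw, Arr3, Opn1mw and Pde6h, which had the highest whole-window ratios in the control library, so the difference is not that of the stretch alone. In the fibroblast table, 0 members passed an adjusted p under 0.01. No paired analysis was possible because each multiome condition has 1 library and the fibroblast values are the authors' own comparison. Leaving out replicates was not possible for the same reason. The depth limits members outside cone-like nuclei, where many levels rest on fewer than 20 fragments.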
